A study of Danio rerio with 6 samples.

Results

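Leptin b, the Il6-type cytokines and the Jak1, Stat3 and Socs3 genes that act after them form one signaling route, and 9 of 10 genes named for this route were followed in sorted retinal cells of adult zebrafish. They are the ligands *lepb*, *clcf1*, *il11a* and *il11b*, the shared receptor gene *il6st*, the kinase gene *jak1*, the transcription factor gene *stat3* and the feedback inhibitor genes *socs3a* and *socs3b*. They were taken by name from an expression table of 27152 gene symbols, which held 8 of them with the same spelling. The other one, *clcf1*, is listed there as CLCF1 and was matched by ignoring case; its locus lies on chromosome 14, as RefSeq gives for *clcf1*. Each symbol stood for a single locus, and no other locus of the table overlapped any of the 9. The table does not state its genome build.

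Cytokines of the Il6 family bind receptors that contain gp130, the protein made from *il6st*, and leptin binds a related receptor. Both kinds of receptor activate Jak kinases, which phosphorylate Stat3, and Stat3 then enters the nucleus and switches on target genes. Socs3 is one such target and shuts the receptor and the kinase down again. In the zebrafish retina, Müller glia (MG) answer an injury by dividing and forming progenitors of new neurons, and leptin, Il6-type cytokines and Stat3 are known to promote this reprogramming.

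RNAseq was performed on GFP+ cells purified by FACS, in 6 libraries that form 3 groups of 2. The injured + apobec2 KD group came from retinas that received a needle poke and a morpholino against *apobec2a* and *apobec2b*, and was collected at 2 days post injury (dpi). The injured group came from needle-poked retinas at 2 dpi, and its column names in the table refer to a control morpholino. The uninjured group came from retinas with no injury. The sample labels give the transgene *gfap:GFP*, in which the promoter of a glial filament gene drives GFP, for all 6 libraries. The text of the study instead describes *gfap:GFP* fish for uninjured cells and fish with GFP under a *tuba1a* promoter for injured cells, and does not name the line of the knockdown. The effect of injury, of the morpholino injection and of the line used for sorting therefore cannot be told apart in comparisons with uninjured cells. Neither source says whether the 2 libraries of a group came from separate fish or how many retinas were pooled. The p-values therefore measure the spread between these libraries, which may be technical.

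Expression is given as FPKM, the number of sequenced fragments divided by transcript length and by library size, which allows levels to be compared between genes. The depth of a library is unknown from FPKM, so no counting interval or detection floor is given. FPKM summed over the table to 946401 and 962888 in injured + apobec2 KD, 1128958 and 1171101 in injured and 985941 and 975192 in uninjured libraries. The sort did not yield glia alone. Summed over 12 rod photoreceptor genes, FPKM was 5993 to 6211 in injured + apobec2 KD, 5626 to 7828 in injured and 16419 to 17134 in uninjured libraries, against 2240 to 2278, 2500 to 2851 and 2956 to 3103 for 14 MG genes in the same order of groups. The 2 highest of the 14 MG genes, *apoeb* and *glula*, went opposite ways, so the MG sum hides changes in its genes. In the same order of groups, *apoeb* had 942 and 926, 1478 and 1762, and 571 and 631 FPKM. *glula* had 750 and 783, 466 and 463, and 1196 and 1280 FPKM. In such mixed samples, fewer cells of a type and less RNA per cell cannot be told apart. The knockdown target *apobec2a* had 0.39 and 0.38 FPKM in injured + apobec2 KD, 0.25 and 0.51 in injured and 0.15 and 0.41 FPKM in uninjured libraries, which overlapped. A morpholino blocks translation or splicing and leaves the gene in place, so this RNA does not check the labels, and *apobec2b* was not analysed here.

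All 9 genes were higher in injured than in uninjured cells. The rise was steepest for the ligand *lepb*, whose mean FPKM was 79.9 times that of uninjured cells, and shallowest, leaving aside *il11a*, which was listed at 0 in uninjured cells, for the receptor gene *il6st*, at 3.49 times. Tested with limma on log2(FPKM + 1), 9 of 9 were called higher at an adjusted p under 0.05, where 29.7% of the 16849 genes tested were called higher. The median log2 fold change was 2.82 over the 9 genes and 0.08 over all genes tested. Genes entered the test with at least 1 FPKM in at least 2 libraries. Of the 9, *lepb*, *il6st*, *jak1*, *stat3*, *socs3a* and *socs3b* reached that level in both uninjured libraries. The other 3, CLCF1, *il11a* and *il11b*, entered through the injured libraries alone, so a difference in them was built into the filter. The 2 groups did not overlap for any of the 9 genes, and the same held for 77.2% of all genes tested.

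**Figure D1:**
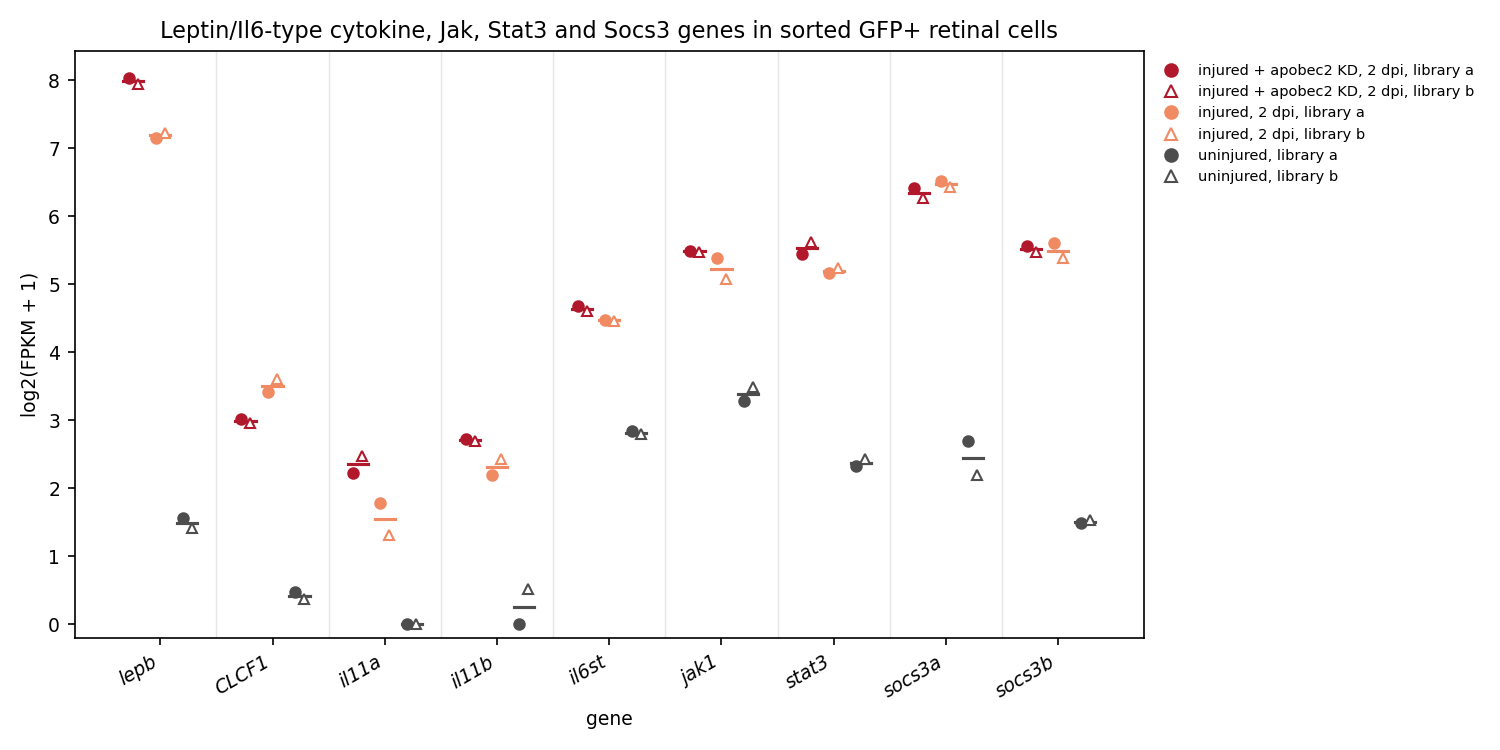
Each point is one library, with log2(FPKM + 1) on the vertical axis and the 9 genes on the horizontal axis; groups run from injured + apobec2 KD through injured to uninjured, and a bar marks the group mean. Both injured groups lie above the uninjured libraries for every gene, and *lepb* is the highest gene in both.

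Among the ligands, leptin b had the highest level in both injured groups. *lepb* (XLOC_022649, chromosome 4, 18099951 to 18102016), which encodes one of the leptin hormones of fish, had 261 and 245 FPKM in injured + apobec2 KD cells, 142 and 148 FPKM in injured cells and 1.96 and 1.67 FPKM in uninjured cells. The 3 groups were separate, with the knockdown libraries highest. Its log2 fold change was 5.70 in injured minus uninjured cells (SE 0.11, limma adjusted p = 5.27e-04), which ranked 23 of 16849 genes. In injured cells *lepb* stood above 98.0% and 98.1% of all symbols in the table, and in uninjured cells above 50.1% and 48.4%.

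The ligand CLCF1 rose as well. Clcf1 is a cardiotrophin-like cytokine that signals through gp130. CLCF1 (XLOC_005864, chromosome 14, 23025707 to 23039438) had 7.10 and 6.78 FPKM in injured + apobec2 KD, 9.67 and 11.2 in injured and 0.39 and 0.29 FPKM in uninjured cells. The injured libraries were highest and no groups overlapped. The log2 fold change in injured minus uninjured cells was 3.09 (SE 0.12, limma adjusted p = 6.85e-04).

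Both interleukin 11 genes were at or near 0 in uninjured cells. Interleukin 11 is a gp130 cytokine known for its part in fin and heart regeneration of zebrafish. *il11a* (XLOC_007708, chromosome 16, 14359726 to 14366281) had 3.70 and 4.58 FPKM in injured + apobec2 KD cells, 2.45 and 1.49 FPKM in injured cells, and was listed at 0 in both uninjured libraries. *il11b* (XLOC_011523, chromosome 19, 11052345 to 11054670) had 5.60 and 5.51 FPKM in injured + apobec2 KD cells, 3.56 and 4.42 FPKM in injured cells, and was listed at 0 in one uninjured library and at 0.43 FPKM in the other. Knockdown libraries were highest for both genes and no groups overlapped. On the log2(FPKM + 1) scale, injured minus uninjured was 1.55 for *il11a* (SE 0.18, limma adjusted p = 0.00426) and 2.06 for *il11b* (SE 0.21, limma adjusted p = 0.00314), and the added 1 compresses the change of genes as low as these. No ratio is given for *il11a*, since a value listed at 0 can be a failed estimate as well as an absence of RNA.

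The receptor, kinase and transcription factor genes were already expressed in uninjured cells and rose by smaller factors. *il6st* (XLOC_002079, chromosome 10, 7783982 to 7803832) had 24.6 and 23.4 FPKM in injured + apobec2 KD, 21.3 and 21.0 in injured and 6.17 and 5.95 FPKM in uninjured cells. *jak1* (XLOC_025766, chromosome 6, 31060240 to 31121331) had 43.9 and 43.6 FPKM in injured + apobec2 KD, 40.7 and 32.8 in injured and 8.70 and 10.2 FPKM in uninjured cells. *stat3* (XLOC_019959, chromosome 3, 16650645 to 16727426) had 42.6 and 48.4 FPKM in injured + apobec2 KD, 34.8 and 36.7 in injured and 4.02 and 4.39 FPKM in uninjured cells. For all 3 genes the uninjured libraries were lowest by a wide margin, while the other 2 groups lay close together without overlap. The log2 fold change in injured minus uninjured cells was 1.65 for *il6st* (SE 0.09, limma adjusted p = 9.62e-04), 1.85 for *jak1* (SE 0.15, limma adjusted p = 0.00200) and 2.82 for *stat3* (SE 0.10, limma adjusted p = 5.91e-04). As ratios of mean FPKM, injured over uninjured was 3.49 for *il6st*, 3.88 for *jak1* and 8.51 for *stat3*.

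Both copies of the feedback inhibitor gene rose as well. *socs3a* (XLOC_021226, chromosome 3, 58237024 to 58239849) had 84.4 and 75.8 FPKM in injured + apobec2 KD, 90.9 and 85.4 in injured and 5.50 and 3.59 FPKM in uninjured cells. *socs3b* (XLOC_004412, chromosome 12, 37046022 to 37050248) had 46.4 and 43.3 FPKM in injured + apobec2 KD, 47.6 and 40.9 in injured and 1.80 and 1.90 FPKM in uninjured cells. The uninjured libraries were lowest for both copies. The knockdown and injured libraries overlapped for *socs3b* and lay side by side for *socs3a*, with the injured ones higher. The log2 fold change in injured minus uninjured cells was 4.03 for *socs3a* (SE 0.19, limma adjusted p = 7.92e-04) and 3.99 for *socs3b* (SE 0.12, limma adjusted p = 5.27e-04). *socs3a* exceeded *socs3b* in each library, by ratios of FPKM of 1.82 and 1.75 in injured + apobec2 KD, 1.91 and 2.09 in injured and 3.06 and 1.89 in uninjured cells.

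The order of the levels differed between uninjured cells and both injured groups. In injured + apobec2 KD cells *lepb* led with a mean of 252.9 FPKM, followed by *socs3a* at 80.1 FPKM, and *stat3*, *socs3b* and *jak1* overlapped behind them. In injured cells *lepb* again led, at 144.9 FPKM, followed by *socs3a* at 88.2 and *socs3b* at 44.2 FPKM. *jak1* and *stat3* came next there and did not differ beyond their spread, at means of 36.7 and 35.8 FPKM, followed by *il6st*, CLCF1, *il11b* and *il11a*. In uninjured cells *jak1* was highest, at a mean of 9.46 FPKM, followed by *il6st*, then by *socs3a* and *stat3*, whose libraries overlapped, then by *socs3b* and *lepb*, which also overlapped, and the remaining ligands were below 1 FPKM. Summed over the 4 ligands, FPKM was 277 and 262 in injured + apobec2 KD, 158 and 165 in injured and 2.35 and 2.39 in uninjured cells. *lepb* made up 94.1% and 93.6% of that sum in injured + apobec2 KD, 90.0% and 89.6% in injured and 83.4% and 69.9% in uninjured cells. These shares leave out other ligands such as *lepa*, at 37.6 and 32.6 FPKM in injured + apobec2 KD and 20.9 and 23.5 FPKM in injured cells.

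The knockdown was compared with the injured group to see which of these genes differ between them. Apobec2 is a protein related to cytidine deaminases that is known to be induced in injured zebrafish retinas. In these libraries *apobec2a* overlapped between injured and uninjured cells, as given above. One of the 9 genes, *lepb*, passed the test. It was 1.74 times as high in injured + apobec2 KD as in injured cells, with a log2 fold change of 0.80 (SE 0.10, 95% interval 0.52 to 1.07, limma adjusted p = 0.0203). By limma, 1 of the 9 genes was called, where 9.37% of the 16680 genes tested were called in either direction, so the share among the 9 was near that of all genes. The call of *lepb* did not hold without any one of the 4 libraries, with adjusted p between 0.105 and 0.123 and log2 fold changes between 0.75 and 0.84.

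**Figure D2:**
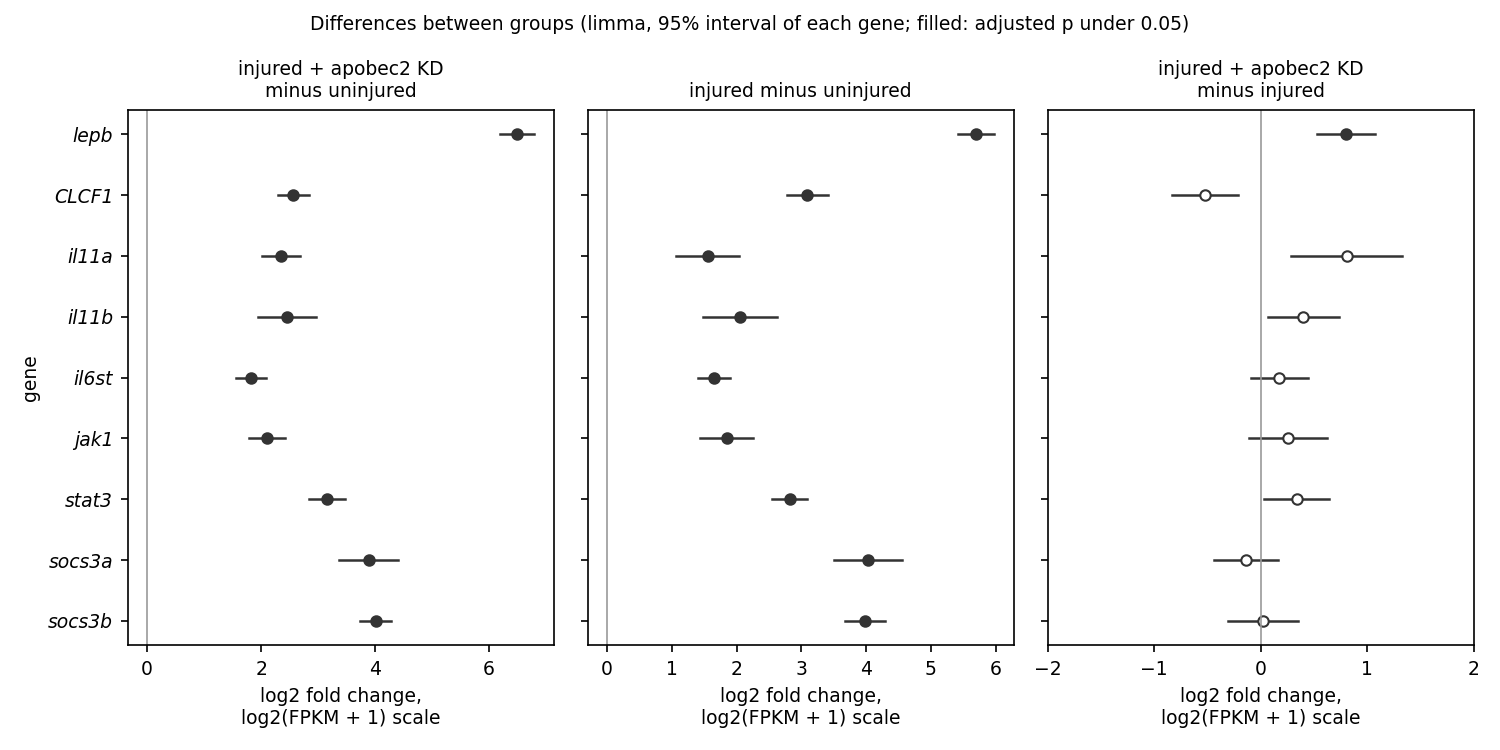
Log2 fold changes on the log2(FPKM + 1) scale are shown with each gene's 95% interval from limma for the 3 comparisons, filled where the adjusted p was under 0.05. Injured + apobec2 KD minus uninjured and injured minus uninjured lie far above 0 for every gene, while injured + apobec2 KD minus injured spans -0.52 for CLCF1 to 0.81 for *il11a* and is filled for *lepb* alone.

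The other 8 genes did not pass the test between injured + apobec2 KD and injured cells. The libraries of the 2 groups did not overlap for 8 of the 9 genes, which held for 61.8% of all genes tested. CLCF1 had a log2 fold change of -0.52 (95% interval -0.83 to -0.21, limma adjusted p = 0.0652). *il11a* was at 0.81 (0.28 to 1.33, adjusted p = 0.0770) and *il11b* at 0.40 (0.06 to 0.73, adjusted p = 0.122). Among the ligands, then, the CLCF1 estimate was below 0 while those of *lepb*, *il11a* and *il11b* were above 0. The estimates were 0.34 for *stat3* (0.03 to 0.64, adjusted p = 0.139), 0.25 for *jak1* (-0.11 to 0.62, adjusted p = 0.292) and 0.17 for *il6st* (-0.09 to 0.44, adjusted p = 0.308). For the inhibitors they were -0.14 for *socs3a* (-0.44 to 0.16, adjusted p = 0.462) and 0.02 for *socs3b* (-0.30 to 0.35, adjusted p = 0.920). The intervals of *socs3a* and *socs3b* reach no further than 0.44 from 0, while that of *il11a* reaches 1.33. A fit that drew its spread from all 6 libraries called CLCF1 (adjusted p = 0.0359) and *il11a* (adjusted p = 0.0421) as well.

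Ratios between ligands were read within each library. There, the FPKM of *lepb* over that of CLCF1 was 36.8 and 36.1 in injured + apobec2 KD, 14.7 and 13.2 in injured and 5.03 and 5.76 in uninjured cells. The 3 groups did not overlap, and the knockdown ratio was the highest. The uninjured ratios rest on CLCF1 at 0.39 and 0.29 FPKM, below the level required for the test. The ratio of *il11b* to *il11a* was 1.51 and 1.2 in injured + apobec2 KD and 1.45 and 2.97 in injured cells, which overlapped. With 2 libraries a group, an exact permutation test of such a ratio cannot give a two-sided p below 0.333, so no test is given. The ratio of *lepb* to its paralog *lepa* was 6.94 and 7.51 in injured + apobec2 KD and 6.78 and 6.31 in injured cells. It was 8.17 in the only uninjured library where *lepa* was detected, at 0.24 FPKM, below the level required for the test. The ratio of *lepb* to the leptin receptor gene *lepr* was 34.8 and 33.1 in injured + apobec2 KD and 35.5 and 32.5 in injured cells, overlapping between them, against 2.55 and 3.88 in uninjured cells. There, *lepr* was also below that level, at 0.77 and 0.43 FPKM.

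Against uninjured cells, injured + apobec2 KD cells had higher levels of the 9 genes too. By limma, 9 of 9 were called higher, where 22.9% of the 16423 genes tested were, and the median log2 fold change was 2.57 over the 9 genes and 0.07 over all genes tested. *lepb* had the largest log2 fold change of the 9, at 6.50 (SE 0.11), and *il6st* the smallest, at 1.82 (SE 0.10), with adjusted p between 4.10e-04 and 0.00215 for the 9 genes. CLCF1, *il11a* and *il11b* entered this test through the knockdown libraries alone, so for them too a difference was built into the filter. The values for *stat3*, *socs3a* and *socs3b* were 3.16, 3.89 and 4.01. The libraries of the 2 groups did not overlap for any of the 9 genes, which held for 72.6% of all genes tested. This comparison shares its uninjured libraries with injured minus uninjured, so the 2 are not independent. By the limits in the methods of the study, a ratio of group means of at least 2 with the higher mean above 5 FPKM, 8 of the 9 genes passed as higher in injured + apobec2 KD over uninjured (not *il11a*), where 5.01% of the 27152 symbols did, and 7 in injured over uninjured (not *il11a* or *il11b*), where 7.5% did. In injured + apobec2 KD over injured 0 of the 9 passed, where 2.94% of symbols passed in either direction, and no test belongs to this rule.

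Other ligands and receptors of the 2 families were read from a wider list of the route. Over all genes tested, 29.7% were called higher in injured minus uninjured and 9.37% in either direction in injured + apobec2 KD minus injured. In this list, *lepa*, *lepr*, *m17*, *csf3r*, *jak3* and *ptpn6* were below 1 FPKM in both uninjured libraries. They entered injured minus uninjured through the injured libraries alone, so a difference in them was built into the filter. *csf3r* and *jak3* entered injured + apobec2 KD minus injured that way too. Between injured + apobec2 KD and injured cells, most calls named from this list did not hold in fewer libraries. Those of *lepr*, *lifra*, *csf3r*, *jak3*, *stat2* and *socs1* were lost without any one library, with adjusted p from 0.0537 for *csf3r* to 0.182 for *lifra*, and that of *m17* without 3 of the 4. *lepa*, the second leptin gene, had 37.6 and 32.6 FPKM in injured + apobec2 KD, 20.9 and 23.5 in injured and 0.24 and 0 FPKM in uninjured cells. It was called higher in injured than in uninjured cells (log2 fold change 4.38, limma adjusted p = 5.83e-04), and its difference of 0.64 between injured + apobec2 KD and injured cells had an adjusted p of 0.0523. The leptin receptor gene *lepr* had 7.51 and 7.40 FPKM in injured + apobec2 KD, 4.0 and 4.55 in injured and 0.77 and 0.43 FPKM in uninjured cells. It was called in both comparisons, with log2 fold changes of 1.73 in injured minus uninjured (adjusted p = 0.00207) and 0.68 in injured + apobec2 KD minus injured cells (adjusted p = 0.0330). *m17*, which RefSeq gives as the zebrafish *lif*, a gp130 cytokine, had 1.73 and 0.58 FPKM in injured + apobec2 KD, 5.91 and 7.21 in injured and 0.42 and 0.91 FPKM in uninjured cells, and was called in both comparisons in opposite directions (2.19, adjusted p = 0.00214, and -1.86, adjusted p = 0.0303). Of the 4 other ligands tested in injured minus uninjured, 3 were called higher and 1 lower. Each of the 4 was below 1 FPKM in both libraries of its lower group, so these directions were built into the filter.

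The specific receptor chains for interleukin 6 and interleukin 11 were barely expressed. *il6r* ranged over 0.05 and 0.27 FPKM in injured + apobec2 KD, 0.63 and 0.92 in injured and 0.12 and 0.06 FPKM in uninjured cells, and *il11ra* was at 0.29 and 0.58, 0.51 and 0.34, and 0.50 and 0.43 FPKM in the same order. Both were below the level required for the test. The receptor chains for Lif and for Cntf were expressed in all 3 groups. *lifra* had 8.60 and 9.66 FPKM in injured + apobec2 KD, 5.03 and 5.76 in injured and 5.73 and 6.70 FPKM in uninjured cells, and was called higher in the knockdown than in injured cells (0.66, limma adjusted p = 0.0437), a call lost in 6 of 12 alternatives. *cntfr* had 12.6 and 10.4 FPKM in injured + apobec2 KD, 11.6 and 10.6 in injured and 8.28 and 7.08 FPKM in uninjured cells, and was called higher in injured than in uninjured cells (0.48, adjusted p = 0.0312), a call also lost in 6 of 12 alternatives, 2 of them other scalings. *csf3r*, the receptor of the granulocyte growth factor, was called in both comparisons in opposite directions, at 1.39 in injured minus uninjured (adjusted p = 0.00197) and -1.32 in injured + apobec2 KD minus injured (adjusted p = 0.0244). The interleukin 6 gene itself was not analysed here.

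Among the kinases, *jak1* stood apart from its relatives. *jak2a* had 7.66 and 7.14 FPKM in injured + apobec2 KD, 9.09 and 8.50 in injured and 7.49 and 5.85 FPKM in uninjured cells, and injured minus uninjured was 0.36 (limma adjusted p = 0.0993). *jak2b* was at 6.87 to 7.52 FPKM in all 6 libraries, and *tyk2* at 1.79 to 3.90 FPKM. Of the 4 other Jak genes tested in injured minus uninjured and in injured + apobec2 KD minus injured, 1 was called, *jak3*, a kinase of blood cells, which was higher in injured than in uninjured cells (1.07, adjusted p = 0.00798) and lower in injured + apobec2 KD than in injured cells (-1.06, adjusted p = 0.0219). Its level stayed below 2 FPKM. Of all genes tested, 29.7% were called higher in injured minus uninjured and 9.37% in either direction in injured + apobec2 KD minus injured. *tyk2* was called higher in injured + apobec2 KD minus uninjured (0.59, adjusted p = 0.0499), and in 3 of 11 alternatives. The ratio of *jak1* to *jak2a* within a library was 5.73 and 6.11 in injured + apobec2 KD, 4.48 and 3.86 in injured and 1.16 and 1.75 in uninjured cells. No groups overlapped in this ratio.

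**Figure D3:**
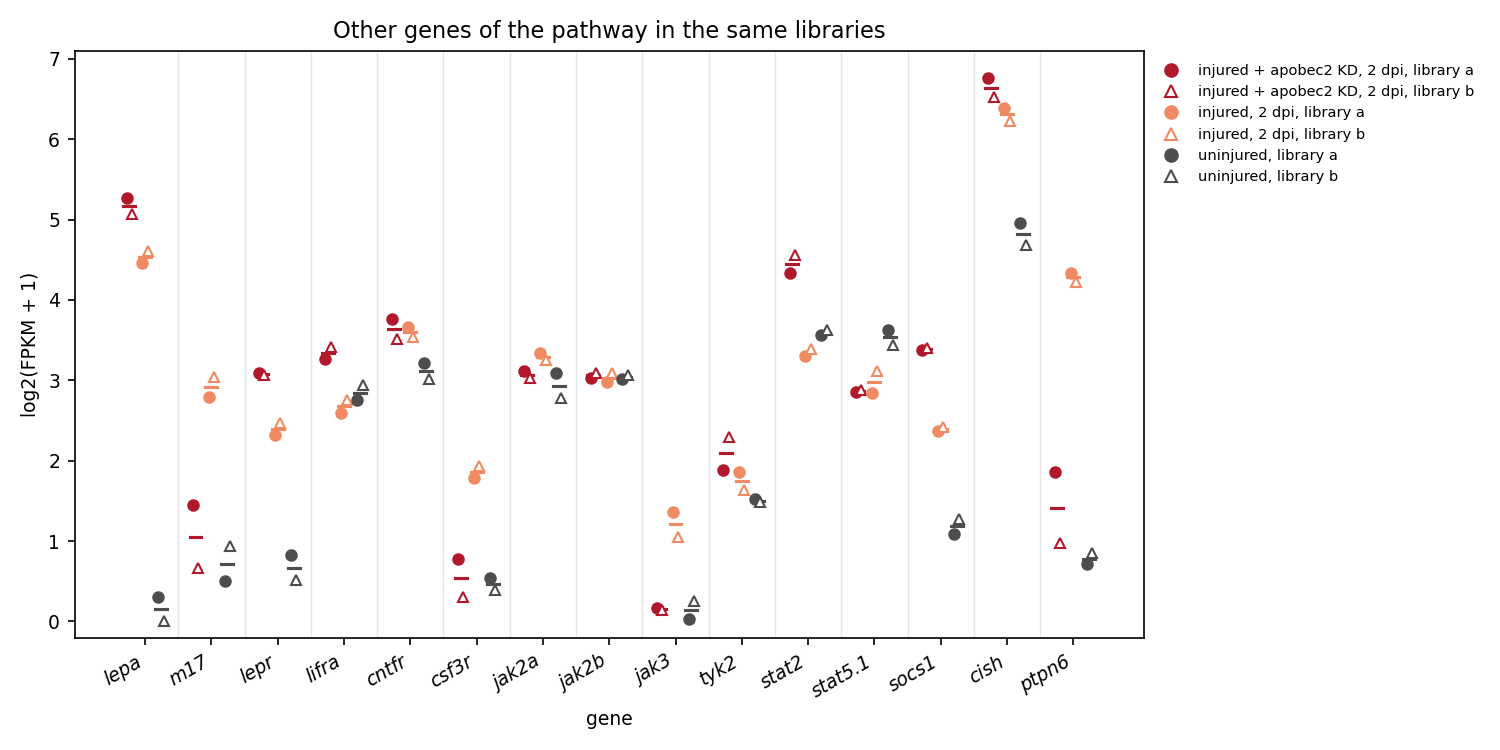
Other genes of the route are plotted as log2(FPKM + 1) by library, with groups from injured + apobec2 KD through injured to uninjured and a bar at each group mean. *lepa*, *lepr*, *socs1* and *cish* are lowest in uninjured cells, *jak2b* is level across the 6 libraries, and *ptpn6*, *csf3r*, *m17* and *jak3* are highest in injured cells.

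In injured minus uninjured cells the other Stat genes had smaller log2 fold changes than *stat3*. Of 5 tested in injured minus uninjured, 2 were called higher and 1 lower, with *stat6* at 1.12 (limma adjusted p = 0.00801) and *stat5.1* at -0.56 (adjusted p = 0.0353). Over all 16849 genes tested there, 4997 were called higher and 3206 lower. The other higher call, that of *stat1a*, was lost in 5 of 12 alternatives. The call of *stat5.1* was lost in 6 of 12 alternatives, and that of *stat6* without one of the injured libraries (adjusted p = 0.0508). *stat2*, which acts after interferon receptors, had 19.1 and 22.6 FPKM in injured + apobec2 KD, 8.85 and 9.50 in injured and 10.8 and 11.4 FPKM in uninjured cells. It was the 1 of 5 called in injured + apobec2 KD minus injured (1.1, adjusted p = 0.0156), where 9.37% of all genes tested were called in either direction. *stat1b*, also of the interferon response and named here after its value was seen, was at 1.14 there (adjusted p = 0.0713), so both had larger estimates than *stat3* between the injured groups. The ratio of *stat3* to *stat1a* within a library was 1.55 and 1.86 in injured + apobec2 KD, 1.46 and 1.54 in injured and 0.231 and 0.265 in uninjured cells. No groups overlapped in this ratio, though the injured and knockdown libraries nearly touched. *stat3* was thus the higher of the pair in both injured groups and the lower of it in uninjured libraries.

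**Figure D4:**
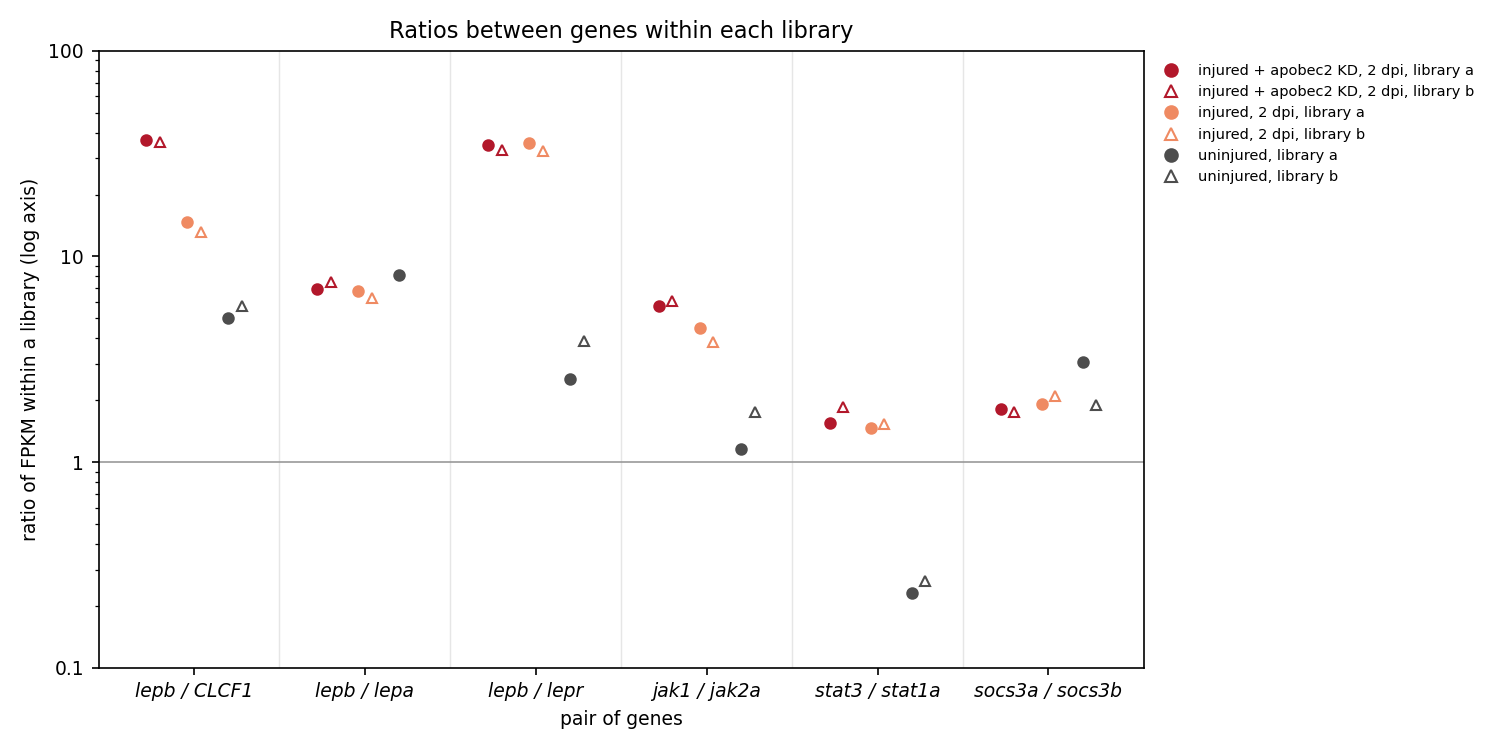
Ratios of FPKM between pairs of genes are drawn for each library on a log axis, with groups from injured + apobec2 KD through injured to uninjured. *lepb* over CLCF1, *jak1* over *jak2a* and, narrowly between the injured groups, *stat3* over *stat1a* separate the 3 groups. *lepb* over *lepr* separates both injured groups from uninjured cells, and *stat3* over *stat1a* crosses the line at 1. CLCF1, *lepa* and *lepr* are below 1 FPKM in both uninjured libraries.

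Of 9 other Socs and Cish genes tested, 5 were called higher and none lower in injured than in uninjured cells. Of all 16849 genes tested there, 4997 were called higher and 3206 lower. The call of *socs7*, among the 5, was lost in 5 of 12 alternatives. *cish*, the inhibitor of Stat5 signaling, had 107.6 and 91.0 FPKM in injured + apobec2 KD, 82.8 and 74.0 in injured and 30.2 and 24.6 FPKM in uninjured cells (injured minus uninjured 1.49, limma adjusted p = 0.00262). *socs1*, which inhibits Jak kinases directly, had 9.41 and 9.59 FPKM in injured + apobec2 KD, 4.17 and 4.37 in injured and 1.13 and 1.42 FPKM in uninjured cells. It was the 1 of 9 called between the 2 injured groups, higher in the knockdown (0.99, adjusted p = 0.0116). In that comparison 9.37% of all genes tested were called in either direction, near the share among the 9. *socs8* rose by 1.52 in injured minus uninjured (adjusted p = 0.00339). Against these, the 2 *socs3* genes had the larger log2 fold changes in injured minus uninjured, at 4.03 and 3.99. Of 8 other inhibitors and phosphatases, 3 were called higher and 2 lower in injured minus uninjured cells. The largest difference among them was in *ptpn6*, a phosphatase of blood cells, which had 2.62 and 0.96 FPKM in injured + apobec2 KD, 19.3 and 17.7 in injured and 0.64 and 0.80 FPKM in uninjured cells. Of the other calls, that of *ptpn11a* was lost in 6 of 12 alternatives, that of *ptpn2a* in 3 and that of *ptpn1* in 2.

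Genes known from mammals as targets of Stat3 were counted as a group. In injured minus uninjured, 13 of 20 tested were called higher and 1 lower, where 29.7% of all genes tested were called higher. The median log2 fold change of the 20 was 1.01 against 0.08 over all genes tested. The calls of *PIM3* and *bcl2l1* were lost in 7 and 6 of 12 alternatives, and *birc5a* entered through the injured libraries alone. The 3 with the largest changes were *cebpb*, a transcription factor of inflammatory responses, at 4.16 (limma adjusted p = 7.46e-04), *ccnd1*, the cyclin of G1 phase, at 3.17 (adjusted p = 0.00111), and *fos*, an immediate early transcription factor, at 2.94 (adjusted p = 0.00221). The one lower gene was *hif1aa*, at -0.73 (adjusted p = 0.00859), a subunit of the hypoxia-inducible factor, named here after its value was seen. In injured + apobec2 KD minus injured, 3 of 20 were called higher and 1 lower, where 9.37% of all genes tested were called in either direction. The median there was 0.10 against -0.02 over all genes tested. The 3 were *cebpd* at 1.32, *mcl1b*, a survival gene, at 1.04 and *vegfaa*, a vascular growth factor, at 0.82, and the lower one was *birc5a*, a gene of dividing cells, at -1.01, with adjusted p between 0.00925 and 0.0173, and all 4 are named here after their values were seen. None of these 4 calls held without any one library.

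Markers of other cells moved with the groups. Summed over 17 microglia and macrophage genes, FPKM was 103 to 157 in injured + apobec2 KD, 1286 to 1544 in injured and 106 to 126 in uninjured libraries. The highest of them, *apoc1l*, had 106 and 69.8, 886 and 1123, and 48.8 and 38.9 FPKM in the same order. It thus made up most of the sum in injured libraries. Of 16 genes of the list tested, 14 were called higher and 0 lower in injured than in uninjured cells, where 29.7% of all genes tested were called higher. The other 2, *cd74a* (0.24) and *cd74b* (-0.47), were not called in that test. *csf1rb*, *spi1l*, *marco*, *c1qb* and *mfap4* entered that test through the injured libraries alone, so a difference in them was built into the filter. In injured + apobec2 KD minus injured, 16 of 16 were called lower, where 9.37% of all genes tested were called in either direction. *csf1rb* again entered through the injured libraries alone. Among the 16, *mpeg1*, a defining macrophage gene, had 4.06 and 2.46 FPKM in injured + apobec2 KD, 40.4 and 47.0 in injured and 2.97 and 1.57 FPKM in uninjured cells. Without any one library, 6 to 15 of the macrophage genes were called lower in injured + apobec2 KD than in injured cells. Of 15 macrophage genes tested in injured + apobec2 KD minus uninjured, 9 were called higher and 2, *cd74a* and *cd74b*, lower, with a median log2 fold change of 0.95. Over all genes tested, 22.9% were called higher there, and *spi1l*, *marco*, *c1qb* and *mfap4* entered through the knockdown libraries alone. *ptpn6*, *csf3r*, *jak3* and *m17* were highest in injured libraries, as were the summed macrophage markers, and the part of these cells in their values was not tested.

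Neutrophil and proliferation markers also differed. Summed over 9 neutrophil genes, FPKM was 85.7 to 113 in injured + apobec2 KD, 138 to 157 in injured and 6.49 to 8.28 in uninjured libraries. *mmp9* and *mmp13a* were the highest of them, and *mmp9* alone had 84.6 and 61.4, 122 and 107, and 0.70 and 0.44 FPKM in the same order. In both injured groups most of the sum was thus *mmp9*, so the sum mainly follows that gene. *cpa5* and CXCR1 were below 1 FPKM in every library. *lyz* had 10.8 and 8.29, 6.65 and 7.52, and 3.93 and 6.46 FPKM in that order of groups. It was not called in injured minus uninjured (0.41, limma adjusted p = 0.198). There, 6 of 7 tested were called higher, where 29.7% of all genes tested were. All 6 were below 1 FPKM in both uninjured libraries, so a difference in them was built into the filter. In injured + apobec2 KD minus injured, 2 of 7 were called lower, where 9.37% of all genes tested were called in either direction. These 2 calls, of *il1b* and *csf3r*, were lost without any one library, and *csf3r* entered through the injured libraries alone. The defining neutrophil gene *mpx* had 1.84 and 1.96 FPKM in injured + apobec2 KD, 4.82 and 3.27 in injured and 0.10 and 0.13 FPKM in uninjured cells. Summed over 16 cell cycle genes, FPKM was 110 to 128 in injured + apobec2 KD, 254 to 290 in injured and 36.8 to 37.6 in uninjured libraries. All 16 were called higher in injured than in uninjured cells, where 29.7% of all genes tested were. Only *pcna*, *mcm7* and *ccnb1* reached 1 FPKM in both uninjured libraries. The others, apart from *rrm2* with 1 such library, entered through the injured libraries alone, so a difference in them was built into the filter. In injured + apobec2 KD minus injured, 12 of 16 were called lower, where 9.37% of all genes tested were called in either direction. None of these 12 calls held without any one library. Pigment cell genes were at 43.5 to 63.0, 92.2 to 104 and 7.36 to 9.42 FPKM in the same order. No list had a marker at 0 in all 6 libraries. Of the 14 MG genes, 6 were called higher and 7 lower in injured than in uninjured cells. Among all 16849 genes tested there, 4997 were called higher and 3206 lower. Of the 6 higher calls, that of *glulb* was lost in 8 of 12 alternatives, that of *slc1a3a* in 2 of 11 and that of *rlbp1b* in 2 of 12. *gfap* was among the higher and *glula*, the glutamine synthetase of MG, among the lower. In injured + apobec2 KD minus injured, 1 of the 14 was called higher and 3 lower, and none of these calls held without any one library. The part of each of these cell types in the levels of the 9 genes was not tested.

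The genes most like *lepb*, *stat3* and *socs3a* across the 6 libraries were listed by Pearson's r of log2(FPKM + 1) among 4232 genes, as a description, since 6 libraries in 3 groups give high values to many genes. Those most like *lepb* were *C7 (1 of 2)*, *il6st* and *lepa*, each with r at or above 0.999. The measure compares the shape of a profile and not its size, since injured minus uninjured was 5.70 for *lepb* and 1.65 for *il6st*. *C7 (1 of 2)*, a gene of the complement component family by its name, had 716.7 and 716.6 FPKM in injured + apobec2 KD, 441.9 and 468.2 in injured and 4.39 and 3.69 FPKM in uninjured cells. Those most like *stat3* were *limk1a*, *FAM210A (1 of 2)* and *epha2*. Those most like *socs3a* were *txn*, which encodes thioredoxin, *cd82a* and a gene named in the table by a sequence identifier alone. *txn* had 125 and 118 FPKM in injured + apobec2 KD, 129 and 128 in injured and 8.68 and 6.24 FPKM in uninjured cells.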

How the data were processed

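The authors purified GFP+ retinal cells by FACS, sequenced their RNA on an Illumina instrument and deposited FPKM for each gene and library. The submitters' processing notes name CASAVA, TopHat and Bowtie2, the layout of the table is that of Cuffdiff, and versions, genome build and annotation are not given in the sources used here. Columns of the authors' own means, fold changes and p-values were left out, as were 6 more columns of per-library values. The names of those 6, like those of the FPKM columns, give the group of a library and not its number in the labels. Each locus appears 3 times, once for each pair of groups, and was read once, and rows that share a symbol were summed.

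For each pair of groups, log2(FPKM + 1) was fitted with limma 3.58.1 (R 4.3.3, lmFit and eBayes, two-sided) in the 4 libraries concerned, for every gene that reached 1 FPKM in 2 or more of them, with Benjamini-Hochberg adjustment over those genes and a threshold of 0.05. The code was tested on simulated data. The methods of the study give limits of 2-fold and 5 FPKM but no model. Other settings tried were quantile normalization, scaling by the median of ratios, a pseudocount of 0.1, a prior variance with a trend, all 6 libraries in a fit, no filter, a filter above 5 FPKM, the row with the highest mean per symbol, and leaving out each library. The 9 genes, the lists and the tests were chosen with earlier results of these data known. Named genes are the 9, a fixed set of receptors, kinases and ligands, up to 3 called genes of each list with the largest change, 1 or 2 markers of a cell type, and the 3 genes most like *lepb*, *stat3* and *socs3a*. *stat1a*, *mpx*, *mpeg1*, *lyz*, *cpa5*, CXCR1, *cd74b* and the genes said to be named after their values were seen fall outside this rule. So do genes named only for a lost call or for how they entered a test. One of the 10 genes named for the route is not reported here. Promoter and protein sequences were not used here. Column names show the group of a library but not its number in the labels, so libraries were not paired. Tables and figures were made with pandas 2.3.3, NumPy 2.4.6, SciPy 1.17.1 and Matplotlib 3.10.9 in Python 3.11.15.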

Additional observations from a re-analysis of the deposited data

How the results depend on the processing

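In injured minus uninjured and in injured + apobec2 KD minus uninjured, each of the 9 genes was called higher under each alternative that could be run. *il11a* did not enter the filter above 5 FPKM, nor did *il11b* in injured minus uninjured. No paired analysis was possible because column names give the group of a library without its number in the labels. Between injured + apobec2 KD and injured cells, *lepb* was called in 8 of 12 alternatives, 3 of the 9 genes were called with all 6 libraries in the fit, 0 without any one library, and 1 passed the 2-fold limit with a minimum of 1 FPKM (*il11a*). The precision is limited by 2 libraries a group.

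Over all genes, injured + apobec2 KD minus injured gave 1563 calls, against 1022 with a pseudocount of 0.1, 2357 with all 6 libraries in the fit, 925 with no filter and 154 to 265 without any one library. Leaving out one library gave 4463 to 5280 calls in injured minus uninjured, against 8203 with all, and 2558 to 3221 in injured + apobec2 KD minus uninjured, against 6052. The share of higher calls depended on the scaling. Quantile normalization gave 3795 higher and 4803 lower calls in injured minus uninjured, against 4997 and 3206, with the median of all genes at -0.11 in place of 0.08. In injured + apobec2 KD minus injured it gave 737 higher and 850 lower calls, against 523 and 1040, and in injured + apobec2 KD minus uninjured 2949 and 3130, against 3766 and 2286.

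Some differences near 0 changed sign. In injured + apobec2 KD minus injured, leaving out one library gave *socs3b* -0.0838 to 0.128, *cntfr* -0.0871 to 0.163, *jak2b* -0.026 to 0.0851, *ptpn2a* -0.169 to 0.353, *stat5.1* -0.252 to 0.0239 and *stat6* -0.327 to 0.337. In injured minus uninjured it gave *jak2b* -0.0617 to 0.0494. A pseudocount of 0.1 gave -0.0041 for *stat6* in injured + apobec2 KD minus injured. The cause of these changes was not tested.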
